A study of Homo sapiens with 6 samples.

Results

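The keratin and desmosomal plaque genes described here are 10 in number, namely the type II keratins KRT7, KRT8, KRT80 and KRT81, the type I keratins KRT18 and KRT19, and the plaque genes DSP, JUP, PKP2 and PKP3. They were taken by symbol from a deposited table of 25365 rows, in which all 10 were present, and all 10 were among the 11790 genes tested. The table holds RNA-seq values of 6 libraries from MDA-MB-231, an established line of triple-negative breast cancer. Cells of 3 libraries had been transfected for 48 h with 20 nM of the siRNA si-NRDE2-2, and cells of the other 3 with 20 nM of the control siRNA si-Control. The transfection reagent, lipofectamine RNAiMAX, and serum-containing medium were common to both groups. The comparison is of cells depleted of NRDE2, a nuclear partner of the helicase MTREX, with cells that keep it. Both siRNAs were commercial (Ambion s30064 for si-NRDE2-2, Ambion AM4611 for si-Control). Because only 1 siRNA against NRDE2 was used, off-target effects cannot be told apart from NRDE2 loss. The labels do not say that replicates were grown separately, and each p-value therefore reflects the spread of these libraries alone, which could be technical.

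Keratins and the desmosomal plaque form one of the mechanical systems of epithelial cells. Keratins are intermediate filament proteins that assemble only as heteropolymers of a type I and a type II chain, KRT18 with KRT8 being the first pair made in simple epithelia. At desmosomes the filaments are anchored by desmoplakin (DSP), which binds them with its tail and binds plakoglobin (JUP) and the plakophilins (PKP2, PKP3) with its head, and these armadillo proteins hold the tails of the desmosomal cadherins. Breast cancer cells of mesenchymal character can keep simple keratins after losing E-cadherin.

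Values are FPKM, fragment counts scaled to transcript length and to the library's total, so levels of different genes can be compared. Means are given ± SD with n = 3 per group. A log2 fold change is si-NRDE2-2 over si-Control on the scale log2(FPKM + 0.1), given ± its standard error, and a gene is called where limma's adjusted p is under 0.05. NRDE2 mRNA was 0.230, 0.234 and 0.229 FPKM in si-NRDE2-2 replicates 1, 2 and 3, against 4.39, 4.45 and 3.80 FPKM in si-Control replicates 1, 2 and 3 (log2 fold change -3.70 ± 0.10, adjusted p = 4.6e-09), so each library matched its label. Estimated depth was 40200000 to 51200000 fragments in si-NRDE2-2 libraries and 48500000 to 55300000 fragments in si-Control libraries, and the summed FPKM of a library ran from 448986 to 486271, the highest being si-Control replicate 3. At that depth the lowest member, PKP3, still had about 751 fragments in its poorest library, and KRT8 had about 30241. Of the marker genes, ESR1 and PGR were under 0.1 FPKM in every library. VIM, the mesenchymal filament gene, averaged 1131 ± 17.6 FPKM in si-NRDE2-2 and 1200 ± 64.9 FPKM in si-Control libraries. Other markers were mixed. In si-Control libraries the mesenchymal or line markers CD44 and AXL averaged 152 and 195 FPKM, but CDH2 and SPARC 0.184 and 0.538 FPKM. The luminal markers ERBB2 and XBP1 averaged 12.8 and 86.7 FPKM there.

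Of the 10 genes 4 changed. DSP, KRT80 and KRT81 fell to between 0.743 and 0.783 times their control level, and KRT18 rose 1.15-fold. The abundant keratins KRT7, KRT8 and KRT19 and the plaque genes JUP, PKP2 and PKP3 did not pass the test. Among all genes tested 44.0% were called, 20.9% higher and 23.0% lower, so a share of 4 in 10 is close to the background. The median absolute log2 change was 0.12 over the members and 0.14 over all genes tested, and the median log2 change was -0.11 over the members and -0.02 over all genes tested. The change in KRT81 was larger in size than that of 89.4% of genes tested, that of DSP larger than 88.8%, that of KRT80 larger than 84.3%, that of KRT18 larger than 63.0% and that of KRT8 larger than 0.857%.

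**Figure D1:**
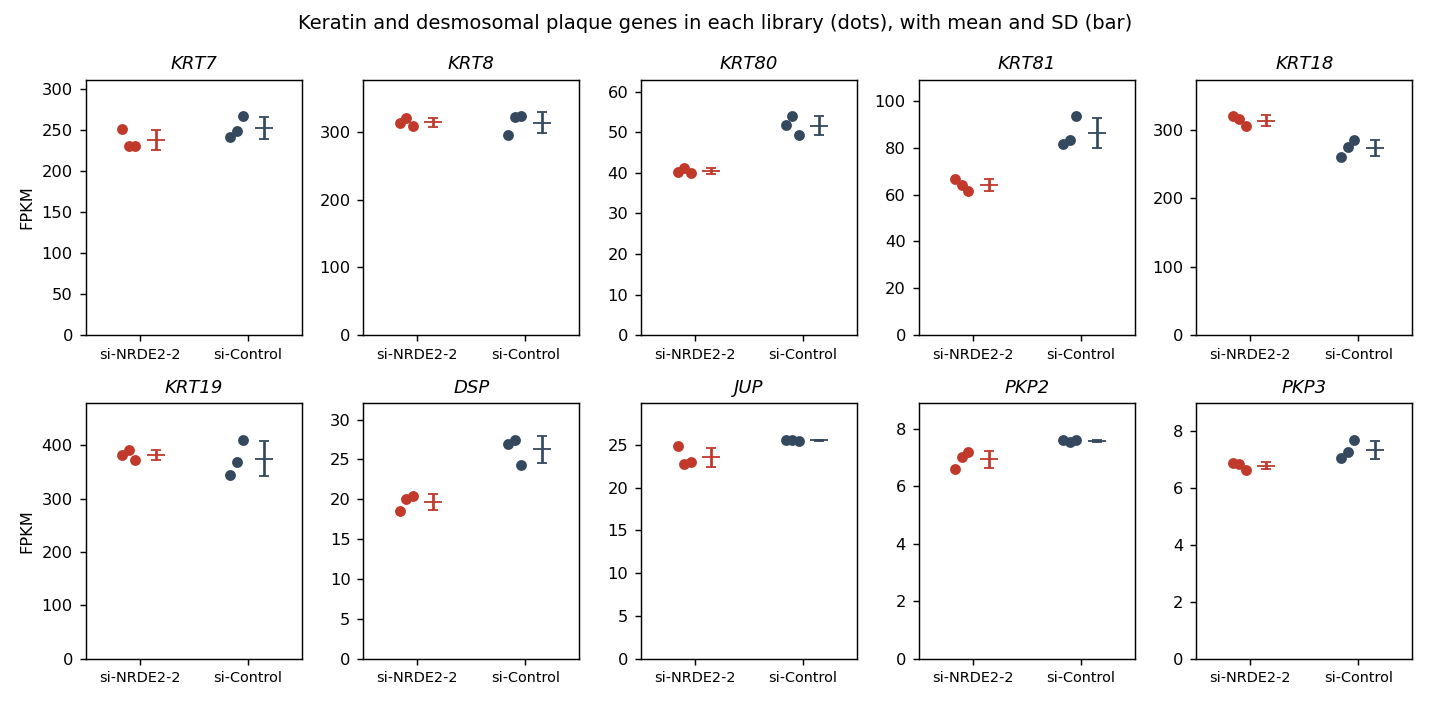
FPKM of each keratin and desmosomal plaque gene in every library (dots; si-NRDE2-2 in red on the left of each panel, si-Control in dark blue on the right), with the mean and SD of 3 libraries as a bar; each axis starts at 0. The groups do not overlap for KRT80, KRT81, KRT18, DSP, JUP, PKP2 and PKP3, and overlap for KRT7, KRT8 and KRT19.

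KRT81 belongs to a family of near copies, and its sequence bears on how far its level can be trusted. It is a hair-type keratin that some breast carcinomas express, and it lies on chromosome 12 inside the annotated span of its copy KRT86, on the opposite strand, and next to its copy KRT83. In GENCODE 29 transcripts the coding sequence of KRT81 was 94.2% identical to that of KRT86, with an unbroken identical run of 605 bases, and 93.5% identical to that of KRT83, with a longest run of 95 bases. Of all stretches of 75 bases in the KRT81 transcript, 33.0% also occurred in KRT86 and 1.13% in KRT83. A stretch of 90 coding bases without gaps, from base 1237 to base 1326 of the KRT81 coding sequence, is the one in which KRT81 and KRT86 differ most. It is printed because only fragments over such bases can separate the genes. Capitals mark, in KRT81, the bases at which either copy differs and, in the copies, the bases that differ from KRT81.
KRT81: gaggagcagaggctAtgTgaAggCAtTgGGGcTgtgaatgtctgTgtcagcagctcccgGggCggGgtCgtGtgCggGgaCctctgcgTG
KRT86: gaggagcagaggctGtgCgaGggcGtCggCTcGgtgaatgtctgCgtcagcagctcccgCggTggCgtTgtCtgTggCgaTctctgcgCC
KRT83: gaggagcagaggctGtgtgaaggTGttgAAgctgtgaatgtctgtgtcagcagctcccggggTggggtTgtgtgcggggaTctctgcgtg
In this stretch KRT86 differed from KRT81 at 19 bases and KRT83 at 8. How fragments were divided among KRT81, KRT86 and KRT83 when the authors counted is not known here, so the split among them is uncertain.

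Among the type II keratins, KRT81 fell. It stood at 66.5, 63.9 and 61.6 FPKM in si-NRDE2-2 replicates 1, 2 and 3, against 81.5, 83.4 and 93.4 FPKM in si-Control replicates 1, 2 and 3. Every si-NRDE2-2 library lay below every si-Control library. The log2 fold change was -0.43 ± 0.06 (adjusted p = 0.000144), a ratio of means of 0.743. Both of its copies fell as well. KRT86 averaged 12.9 ± 0.357 FPKM in si-NRDE2-2 and 15.1 ± 1.01 FPKM in si-Control libraries (log2 fold change -0.22 ± 0.06, adjusted p = 0.00829). KRT83 averaged 2.10 ± 0.177 FPKM in si-NRDE2-2 and 2.93 ± 0.182 FPKM in si-Control libraries (-0.46 ± 0.08, adjusted p = 0.00119). It shares few exact 75-base stretches with KRT81, but the coding sequences are 93.5% identical. Its values may therefore not be separate from those of KRT81, which stood far higher. The ratio of KRT81 to KRT86 was 4.95 ± 0.114 in si-NRDE2-2 and 5.71 ± 0.162 in si-Control libraries, without overlap. The annotated span of KRT86 also overlaps the abundant KRT7 on the same strand. Whether KRT7 fragments entered the KRT86 values was not tested.

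KRT80, a type II epithelial keratin found near desmosomes in differentiating cells, also fell. It measured 40.3, 41.2 and 39.8 FPKM in si-NRDE2-2 replicates 1, 2 and 3 and 51.7, 53.9 and 49.3 FPKM in si-Control replicates 1, 2 and 3. All si-NRDE2-2 libraries lay below all si-Control libraries, and the SD was 0.678 FPKM in si-NRDE2-2 and 2.33 FPKM in si-Control libraries. The log2 fold change was -0.35 ± 0.05 (adjusted p = 0.000113), a ratio of 0.783.

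KRT7 and KRT8, the type II keratins of simple and glandular epithelia, did not pass. KRT8 was at 313, 321 and 308 FPKM in si-NRDE2-2 replicates 1, 2 and 3 and at 296, 322 and 323 FPKM in si-Control replicates 1, 2 and 3, with si-Control replicate 1 the lowest of all 6. Its log2 change was 0.0025 ± 0.05, with a 95% interval from -0.11 to 0.12. KRT7 was at 251, 231 and 230 FPKM in si-NRDE2-2 replicates 1, 2 and 3 and at 241, 248 and 266 FPKM in si-Control replicates 1, 2 and 3. The groups overlapped through si-NRDE2-2 replicate 1, and the 95% interval of its log2 change ran from -0.21 to 0.04 (estimate -0.09, adjusted p = 0.237).

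Of the type I keratins, KRT18 rose. It stood at 320, 316 and 306 FPKM in si-NRDE2-2 replicates 1, 2 and 3 and at 261, 275 and 285 FPKM in si-Control replicates 1, 2 and 3. The lowest si-NRDE2-2 library was above the highest si-Control library, and the log2 fold change was 0.20 ± 0.05 (adjusted p = 0.00878). KRT19, a type I keratin of simple epithelia that lacks most of the tail domain, was the most abundant of the 10. It measured 382, 391 and 374 FPKM in si-NRDE2-2 replicates 1, 2 and 3 and 346, 369 and 410 FPKM in si-Control replicates 1, 2 and 3. The control libraries bracketed all si-NRDE2-2 libraries, and the 95% interval of its log2 change ran from -0.11 to 0.17 (estimate 0.03, adjusted p = 0.722).

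The ratios between chain types did not overlap between the groups, and the summed keratin levels did. The ratio of KRT18 to KRT8 was 1.02, 0.983 and 0.991 in si-NRDE2-2 replicates 1, 2 and 3 and 0.880, 0.852 and 0.882 in si-Control replicates 1, 2 and 3. By FPKM, each si-NRDE2-2 library was near equal levels of both mRNAs and each si-Control library had less KRT18 than KRT8. How fragments that also match pseudogenes such as KRT8P41 and KRT18P55 were counted is not known here. The ratio of the type I to the type II members was 1.06 ± 0.0156 in si-NRDE2-2 and 0.921 ± 0.0249 in si-Control libraries. The 6 keratins summed to 1352 ± 28.9 FPKM in si-NRDE2-2 and 1352 ± 75.8 FPKM in si-Control libraries. Of this sum, KRT80 and KRT81 made up 7.72% ± 0.0477 in si-NRDE2-2 and 10.2% ± 0.222 in si-Control libraries. These are descriptions and were not tested, since they combine members. They restate the changes given above. KRT8 was nearly unchanged, so the KRT18 to KRT8 ratio follows the rise of KRT18, and KRT80 and KRT81 are the member keratins that fell. KRT8 and KRT18 are neighbours on chromosome 12 and their annotated genes overlap on opposite strands. The library kit keeps strand, but the sources used here do not say whether the counting did.

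**Figure D2:**
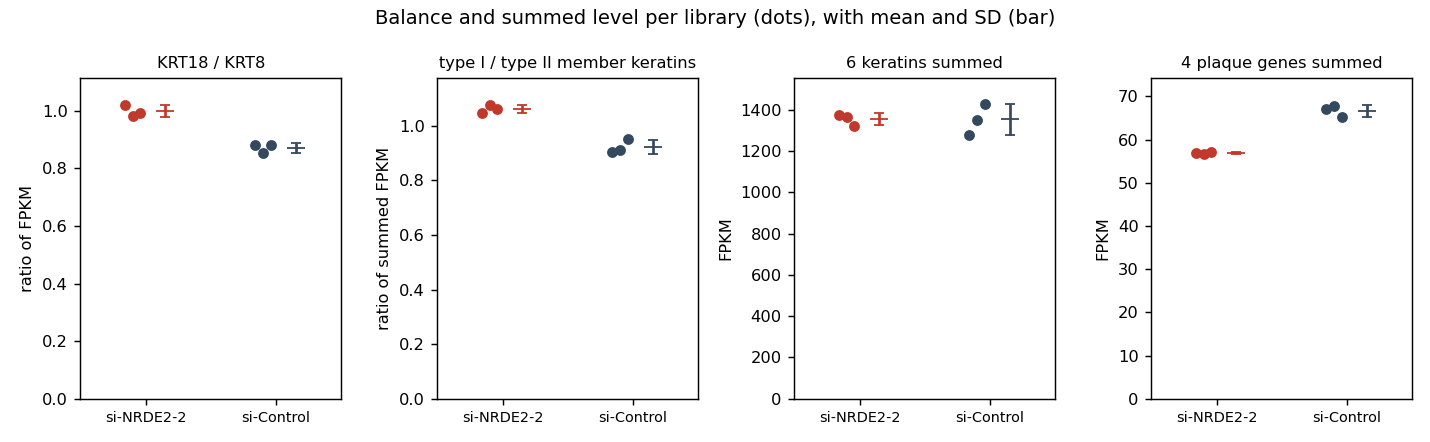
From left to right, the ratio of KRT18 to KRT8, the ratio of summed type I to summed type II members, the summed FPKM of the 6 keratins and the summed FPKM of the 4 plaque genes, for every library (dots; si-NRDE2-2 red and left, si-Control dark blue and right) with mean and SD of 3 libraries; axes start at 0. Both ratios are higher and the plaque sum is lower in all si-NRDE2-2 libraries, whereas the keratin sums overlap.

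DSP was the plaque gene that passed the test. Desmoplakin is the obligate link between the plaque and keratin filaments. DSP measured 18.6, 20.0 and 20.4 FPKM in si-NRDE2-2 replicates 1, 2 and 3 and 27.0, 27.4 and 24.3 FPKM in si-Control replicates 1, 2 and 3. The highest si-NRDE2-2 library stayed below the lowest si-Control library, and the log2 fold change was -0.41 ± 0.06 (adjusted p = 0.000161), a ratio of 0.749.

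JUP encodes plakoglobin, the one plaque protein shared by desmosomes and adherens junctions. It was at 24.8, 22.8 and 23.0 FPKM in si-NRDE2-2 replicates 1, 2 and 3 and at 25.5, 25.6 and 25.5 FPKM in si-Control replicates 1, 2 and 3. The groups did not overlap, but the difference was small and narrowly missed the threshold (log2 fold change -0.12 ± 0.05, 95% interval -0.22 to -0.02, adjusted p = 0.0532). With single libraries left out the log2 fold change ran from -0.16 (adjusted p = 0.00979, without si-NRDE2-2 replicate 1, the highest of its group) to -0.10 (adjusted p = 0.211, without si-NRDE2-2 replicate 2). With GC and length trends removed it was -0.071 (adjusted p = 0.0561).

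PKP2, a plakophilin of simple epithelia and heart, was at 6.60, 7.01 and 7.19 FPKM in si-NRDE2-2 replicates 1, 2 and 3 and at 7.60, 7.54 and 7.61 FPKM in si-Control replicates 1, 2 and 3. PKP3, a plakophilin of epithelial desmosomes, was at 6.89, 6.85 and 6.64 FPKM in si-NRDE2-2 replicates 1, 2 and 3 and at 7.06, 7.28 and 7.70 FPKM in si-Control replicates 1, 2 and 3. Neither pair of groups overlapped. The log2 changes were -0.13 ± 0.05 for PKP2 (adjusted p = 0.0731, 95% interval -0.25 to -0.01) and -0.11 ± 0.05 for PKP3 (adjusted p = 0.125, 95% interval -0.23 to 0.01). In all, the groups did not overlap for 7 of the 10 members, against 53.5% of all genes tested. The 4 plaque genes summed to 56.9 ± 0.276 FPKM in si-NRDE2-2 and 66.7 ± 1.40 FPKM in si-Control libraries. DSP, with the largest difference, gave 19.7 ± 0.950 and 26.2 ± 1.67 FPKM of these sums, and JUP, PKP2 and PKP3 were not called.

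In order of level, si-NRDE2-2 libraries had KRT19 first, KRT8 and KRT18 together at 314 FPKM each, then KRT7, KRT81, KRT80, JUP, DSP, PKP2 and PKP3. In si-Control libraries the order was KRT19, KRT8, KRT18, KRT7, KRT81, KRT80, DSP, JUP, PKP2 and PKP3. Between neighbours in that order, libraries overlapped for KRT8 and KRT18 and for PKP2 and PKP3 in the si-NRDE2-2 group, and for KRT18 and KRT7, DSP and JUP, and PKP2 and PKP3 in the si-Control group. All other neighbours were apart. The ratio of DSP to JUP was 0.838 ± 0.0774 in si-NRDE2-2 and 1.03 ± 0.0639 in si-Control libraries, so by their means these genes stood in a different order. In si-Control replicate 3 DSP was already below JUP, at a ratio of 0.955. Within the si-NRDE2-2 group 7 of the 10 members, all 6 keratins and PKP3, were lowest in replicate 3. That library had the lowest FPKM total and the lowest estimated depth of its group. Within the si-Control group 7 members were highest in replicate 3, the library with the highest FPKM total, among them KRT7, KRT8, KRT18, KRT19 and KRT81. DSP, KRT80 and, by a small margin, JUP were lowest there.

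Upstream sequence was at hand for DSP and JUP, the plaque genes with the clearest and the narrowly missed difference, and is shown so that their starts can be compared. Each line gives the 250 bases before the RefSeq start site in GRCh38.p14, DSP on the plus strand at chr6:7541421-7541670 and JUP on the minus strand at chr17:41786712-41786961, which is 1 of the starts listed for it. Capitals mark matches on either strand to the GC box GGGCGG, the E-box CAGGTG, the AP-1 element TGANTCA, the CCAAT box CCAAT and the TATA box TATAAA.
DSP: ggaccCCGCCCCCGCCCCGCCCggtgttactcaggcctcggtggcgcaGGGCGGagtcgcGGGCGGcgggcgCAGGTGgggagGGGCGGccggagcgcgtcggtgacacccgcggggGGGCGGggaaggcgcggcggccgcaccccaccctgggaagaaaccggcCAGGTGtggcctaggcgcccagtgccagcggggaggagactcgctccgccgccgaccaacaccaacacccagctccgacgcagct
JUP: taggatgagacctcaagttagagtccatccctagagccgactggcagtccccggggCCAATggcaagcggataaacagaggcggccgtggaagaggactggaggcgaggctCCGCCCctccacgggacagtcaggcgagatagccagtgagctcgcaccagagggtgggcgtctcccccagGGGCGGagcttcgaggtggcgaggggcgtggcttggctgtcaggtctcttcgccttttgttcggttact
The DSP window was 78.0% G or C and held 7 GC boxes, some overlapping, and 2 E-boxes. The JUP window was 63.6% G or C and held 2 GC boxes, 1 CCAAT box and 0 E-boxes. The AP-1 element and the TATA box were in neither window. Among 35116 promoters of the table, 42.6% held a GC box, 17.5% this E-box, 32.0% a CCAAT box, 6.57% the AP-1 element and 10.7% the TATA box in a window of the same length. Among the first-listed promoters of 8811 tested genes 68.4% held a GC box, 15.2% this E-box, 35.6% a CCAAT box, 3.87% the AP-1 element and 4.85% the TATA box. A match describes the letters and is no evidence that a factor binds.

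Few other keratins passed the filter. Of 54 keratins listed by name, 11 passed the filter of at least 1 FPKM in at least 3 libraries, and 43 did not, the highest of them reaching 0.575 FPKM. Of the 5 tested keratins that are not members, 3 fell (KRT83, KRT86 and KRT15) and 1 rose (KRT34). Over all genes tested 44.0% were called. With so few genes, and with KRT83 and KRT86 near copies of KRT81, this count says little about keratins as a group. KRT34, a type I hair keratin, was at 4.95, 5.27 and 4.87 FPKM in si-NRDE2-2 replicates 1, 2 and 3 and at 3.84, 3.47 and 3.69 FPKM in si-Control replicates 1, 2 and 3 (log2 fold change 0.45 ± 0.06, adjusted p = 0.000266). Among the tested hair keratins, the type II genes KRT81, KRT83 and KRT86 were lower and the type I gene KRT34 higher. The type II genes are near copies whose fragments may be shared. KRT34 was the only type I hair keratin tested. It lies between KRT33B and KRT31, and whether its fragments are shared with them was not examined. KRT15, a type I keratin of basal epithelial cells, was at 6.15, 5.84 and 5.54 FPKM in si-NRDE2-2 replicates 1, 2 and 3 and at 6.43, 6.49 and 8.08 FPKM in si-Control replicates 1, 2 and 3 (-0.25 ± 0.09, adjusted p = 0.0344). That call was lost in 7 of 16 alternative settings of the analysis, and without si-Control replicate 3 its log2 change was -0.14 (adjusted p = 0.0832). KRT10 did not pass (-0.02 ± 0.05, adjusted p = 0.775). Of the untested keratins, the basal genes KRT5 and KRT14 were under 0.1 FPKM in every library. KRT17, the highest of the untested, was at 0.575, 0.575 and 0.509 FPKM in si-NRDE2-2 replicates 1, 2 and 3. In si-Control replicates 1, 2 and 3 it was at 0.436, 0.440 and 0.488 FPKM, lower than in any si-NRDE2-2 library.

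**Figure D3:**
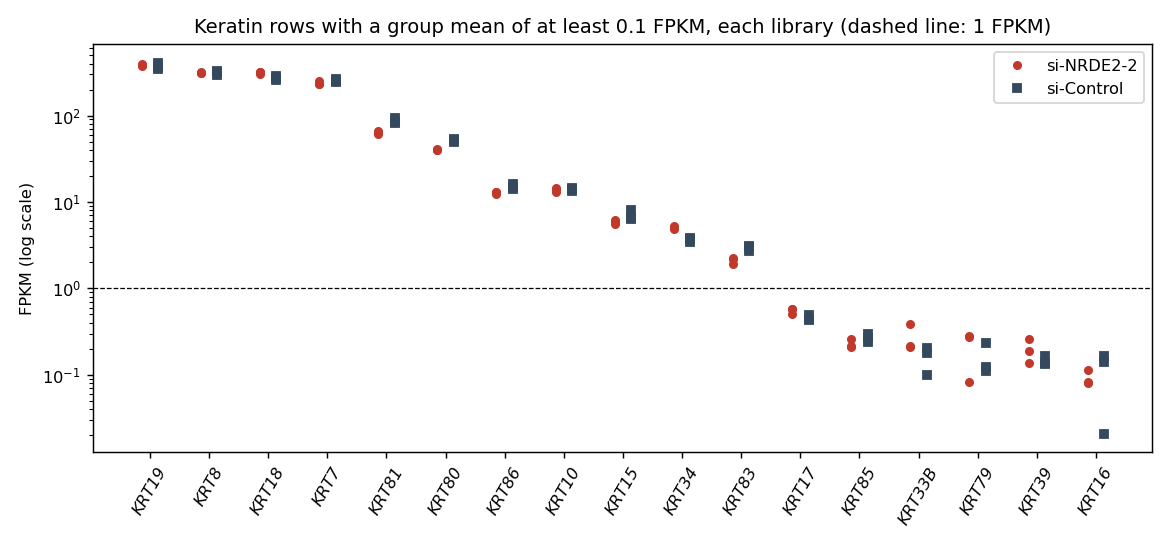
FPKM on a log scale of every listed keratin with a group mean of at least 0.1 FPKM, each library as a point (si-NRDE2-2 as red circles on the left, si-Control as dark blue squares on the right), ordered by the si-Control mean. KRT19, KRT8, KRT18 and KRT7 stand highest, KRT81 and KRT80 follow, and KRT17 and all genes to its right stay under the dashed line at 1 FPKM.

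Around the plaque, 6 of 12 other desmosome genes were tested, of which 1 rose and 2 fell. Of all genes tested 20.9% were called higher and 23.0% lower. The same shares are the background for the counts of every list below, and lists this short cannot be told apart from them. The desmosomal cadherins expressed here were DSG2 and DSC2, and both fell. DSC2, which encodes desmocollin 2, averaged 1.77 ± 0.133 FPKM in si-NRDE2-2 and 2.54 ± 0.0557 FPKM in si-Control libraries (log2 fold change -0.50 ± 0.08, adjusted p = 0.000499). DSG2, which encodes desmoglein 2, averaged 37.2 ± 2.54 FPKM in si-NRDE2-2 and 41.4 ± 2.22 FPKM in si-Control libraries (-0.16 ± 0.06, adjusted p = 0.0479). The DSG2 call was lost in 9 of 16 alternative settings. Leaving out si-NRDE2-2 replicate 1 gave a log2 change of -0.10 (adjusted p = 0.15), and it was lost as well when si-NRDE2-2 replicate 2, si-Control replicate 1 or si-Control replicate 2 was left out. PPL, which encodes periplakin, a relative of desmoplakin that also binds filaments, rose to 5.32 ± 0.197 FPKM in si-NRDE2-2, against 3.19 ± 0.155 FPKM in si-Control libraries (0.72 ± 0.06, adjusted p = 8.1e-06). EVPL, which encodes its partner envoplakin, was at -0.16 ± 0.07 (adjusted p = 0.103, and 0.0154 without si-Control replicate 3). PKP4 was at -0.08 ± 0.04 (adjusted p = 0.135, and 0.0329 with GC and length trends removed) and PERP at -0.0022 ± 0.05 (adjusted p = 0.974).

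Hemidesmosomes fix keratin filaments to the basement membrane. Of a list of 8 hemidesmosome genes and other cytolinkers 7 were tested, of which 1 rose and 3 fell. PLEC, which encodes the cytolinker plectin, averaged 69.9 ± 2.09 FPKM in si-NRDE2-2 and 89.2 ± 8.81 FPKM in si-Control libraries (log2 fold change -0.35 ± 0.07, adjusted p = 0.00155). The integrin pair of the hemidesmosome split. ITGA6 averaged 103 ± 7.79 FPKM in si-NRDE2-2 and 79.5 ± 0.646 FPKM in si-Control libraries (0.38 ± 0.06, adjusted p = 0.000293). ITGB4 averaged 42.0 ± 1.75 FPKM in si-NRDE2-2 and 48.3 ± 1.34 FPKM in si-Control libraries (-0.20 ± 0.05, adjusted p = 0.00446). The tetraspanin gene CD151 fell by 0.21 ± 0.05 on the log2 scale (adjusted p = 0.00839). DST, the gene of the hemidesmosomal plakin BPAG1, was at -0.14 ± 0.09 (adjusted p = 0.206). Without si-Control replicate 3 it was at -0.24 (adjusted p = 0.0196), and without si-Control replicate 1 at -0.037. MACF1, which encodes a plakin that links microtubules and actin, was at -0.11 ± 0.07 (adjusted p = 0.218). Without si-Control replicate 3 it was at -0.21 (adjusted p = 0.0052), and without si-Control replicate 1 at -0.047, so both values rest on single control libraries.

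**Figure D4:**
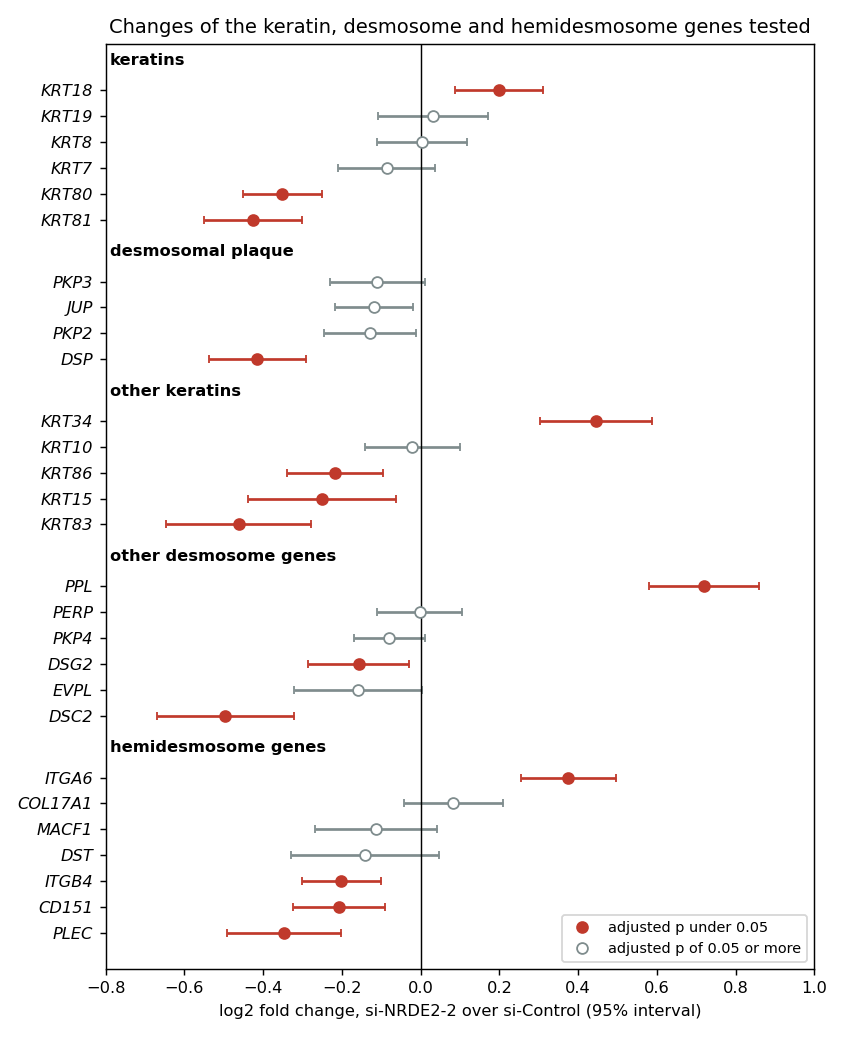
Log2 fold change of si-NRDE2-2 over si-Control with its 95% interval for the 6 keratins and 4 plaque genes and for the other keratin and desmosome genes tested. The block labelled hemidesmosome genes also holds other cytolinkers such as MACF1. Filled red points had an adjusted p under 0.05 and open grey points did not. PPL (0.72) and KRT34 (0.45) lie farthest to the right, and DSC2 (-0.50) and KRT83 (-0.46) farthest to the left.

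At adherens junctions, which share plakoglobin with desmosomes, CDH1 (E-cadherin) was below the filter, at 0.372 ± 0.0558 FPKM in si-NRDE2-2 and 0.408 ± 0.0373 FPKM in si-Control libraries. Of 7 tested genes of this list 2 rose and 1 fell. On the log2 scale, the nectin genes PVRL2 and PVRL1 rose by 0.22 ± 0.05 (adjusted p = 0.00392) and 0.32 ± 0.08 (adjusted p = 0.00645), and MLLT4, the older symbol of afadin, which binds nectins, fell by 0.24 ± 0.05 (adjusted p = 0.0045). The catenin genes CTNNB1 (0.08 ± 0.04, adjusted p = 0.131) and CTNND1 (0.10 ± 0.05, adjusted p = 0.0882) did not pass, although CTNND1 did once trends with GC and length were taken out (adjusted p = 0.0111).

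Of 8 genes for proteins that bind or organise keratin filaments, all tested, 2 rose and 2 fell. PNN, which encodes a nuclear protein also described at desmosomes, rose by 0.34 ± 0.04 on the log2 scale (adjusted p = 0.000116) and TCHP, whose product trichoplein binds keratin filaments, rose by 0.27 ± 0.06 (adjusted p = 0.00565). SFN, the gene of 14-3-3 sigma, fell by 0.26 ± 0.05 (adjusted p = 0.00192), and FBF1, at 0.957 ± 0.137 FPKM in si-NRDE2-2 and 1.46 ± 0.113 FPKM in si-Control libraries, fell by 0.57 ± 0.11 (adjusted p = 0.00221). KLHL24, a ubiquitin ligase adaptor for keratin turnover, was at -0.17 ± 0.07 (adjusted p = 0.0676, but 0.0174 without si-NRDE2-2 replicate 3 and 0.00496 with GC and length trends removed). FAM83H did not pass (0.13 ± 0.07, adjusted p = 0.167).

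Of 14 regulators of epithelial transcription and splicing 7 were tested, of which 2 rose and 2 fell. The ETS factor gene EHF averaged 47.5 ± 1.85 FPKM in si-NRDE2-2 and 33.8 ± 1.51 FPKM in si-Control libraries (log2 fold change 0.49 ± 0.05, adjusted p = 1.6e-05). TFAP2C, a factor of luminal and basal breast cells, rose by 0.57 ± 0.07 (adjusted p = 0.000118). KLF4 fell by 0.21 ± 0.04 (adjusted p = 0.00308), and the epithelial splicing factor gene ESRP2 fell by 0.59 ± 0.08 (adjusted p = 0.000167), at 1.21 ± 0.0267 FPKM in si-NRDE2-2 and 1.87 ± 0.0538 FPKM in si-Control libraries. ELF3 was at -0.17 ± 0.07 (adjusted p = 0.0722, and 0.0261 without si-NRDE2-2 replicate 1) and TFAP2A at -0.09 ± 0.11 (adjusted p = 0.545). GRHL2 and OVOL1 were under 0.1 FPKM in every library.

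Marker lists were read beside these changes. Of 9 luminal markers 6 were tested, of which CD24 rose by 0.21 ± 0.07 (adjusted p = 0.026, lost in 4 of 15 alternatives) and ERBB2 fell by 0.27 ± 0.05 (adjusted p = 0.00111). MUC1, a mucin gene, was at 0.25 ± 0.10 (adjusted p = 0.0707) and passed in 3 alternatives, with adjusted p of 0.0029 without si-NRDE2-2 replicate 3 (log2 change 0.37), 0.0411 with the replicate number as a block and 0.0237 with GC and length trends removed. The list summed to 122 to 127 FPKM in si-NRDE2-2 and 124 to 131 FPKM in si-Control libraries, with ESR1, PGR and FOXA1 under 0.1 FPKM throughout. Of 9 markers of the line 7 were tested, of which CD44 rose by 0.26 ± 0.04 (adjusted p = 0.000794) and AXL fell by 0.33 ± 0.04 (adjusted p = 0.000123). The list summed to 2051 to 2101 FPKM in si-NRDE2-2 and 2047 to 2191 FPKM in si-Control libraries. SPARC, below the filter, was at 0.888, 0.839 and 1.01 FPKM in si-NRDE2-2 replicates 1, 2 and 3. In si-Control replicates 1, 2 and 3 it was at 0.606, 0.500 and 0.506 FPKM, lower than in any si-NRDE2-2 library. CDH2, also below the filter, overlapped between the groups. Of 8 fibroblast, immune and endothelial markers 2 were tested and both rose, PDGFRB by 0.33 ± 0.09 (adjusted p = 0.011) and CD68 by 0.22 ± 0.05 (adjusted p = 0.00272). Over all genes tested 20.9% were called higher, and 2 genes are too few to speak for the list. That list summed to 76.0 to 79.5 FPKM in si-NRDE2-2 and 64.4 to 69.6 FPKM in si-Control libraries, nearly all of it CD68. Of the 6 markers below the filter, PTPRC, CD3E, DCN and VWF were under 0.1 FPKM in every library. PECAM1, an endothelial and leukocyte adhesion gene, was at 1.18, 0.958 and 1.15 FPKM in si-NRDE2-2 replicates 1, 2 and 3 and at 0.635, 0.525 and 0.688 FPKM in si-Control replicates 1, 2 and 3, higher in every si-NRDE2-2 library. LUM, a proteoglycan gene of fibroblasts, was at 0.329, 0.358 and 0.353 FPKM in si-NRDE2-2 replicates 1, 2 and 3 and at 0.416, 0.472 and 0.378 FPKM in si-Control replicates 1, 2 and 3, lower in every si-NRDE2-2 library. Whether these markers have a part in the keratin and plaque changes was not tested. In cultured cells measured in bulk, fewer cells that express a gene and less of its RNA per cell cannot be told apart.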

How the data were processed

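RNA-seq libraries of the 6 samples were prepared from total RNA with the TruSeq Stranded mRNA kit, per the labels' protocols. The deposited table holds FPKM values per gene and library; this unit was inferred from the values and the table's name. The submitters' processing notes list hg19, STAR (2.5.1b) and DESeq2 (1.10.1) with no role. The program behind the FPKM values, its annotation and its strand setting are not stated in the sources. Another 4 columns of the table were not used. RPS18 was listed at 0 throughout, so a 0 can be a failed estimate.

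Genes reaching 1 FPKM in 3 or more libraries, small RNA rows left out, were fitted with limma 3.58.1 in R 4.3.3 on log2(FPKM + 0.1), using a trended, robust prior and the group as sole term, and p-values were adjusted by Benjamini-Hochberg over 11790 genes, with 0.05 as threshold. The fit was tested on simulated data. Intervals are 95% intervals of the fit. Library depth was read from the spacing of low values, which lay on whole steps (tolerance 0.02) for 53.3% of 2291 low genes, and its absolute scale rests on 811 genes, so it is approximate. Sequences come from GENCODE 29 and RefSeq (GRCh38), and as the table is of hg19 no coordinates were carried over. The promoter table held 3 of the 10 members, and the KRT8 entry, at an alternative start, was not printed. Biopython 1.88 aligned the coding sequences.

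The members and all lists were chosen with earlier results of these data known. Named genes are the members, NRDE2 and up to 6 tested genes of each of 10 other lists, called ones first by adjusted p. Untested genes such as KRT17, SPARC, PECAM1 and LUM were named after their values were seen. In these lists nectins and afadin carry their older symbols PVRL1, PVRL2, PVRL4 and MLLT4.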

Additional observations from a re-analysis of the deposited data

How the results depend on the processing

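Under 16 alternatives (another pseudocount, filter, scaling or prior, GC and length trends removed, the replicate number as a block, and each library left out) DSP, KRT80, KRT81 and KRT18 remained called in the same direction, with log2 changes of -0.47 to -0.38, -0.38 to -0.31, -0.46 to -0.37 and 0.14 to 0.23. JUP was also called in 3 of them (with a mean of at least 5 FPKM, with quantile normalization and without si-NRDE2-2 replicate 1), KRT7 in 1 (quantile normalization) and PKP2 in 1 (GC and length trends removed), so that 4 to 6 members were called. Removing GC and length trends also gained calls for PKP4, CTNND1, VCL, KLHL24 and MUC1, and scaling to equal FPKM totals called VIM (adjusted p = 0.0372). Single libraries left out gained calls for EVPL, DST, MACF1, VCL, KLHL24, ELF3 and MUC1. Genes called over the whole table numbered 3927 to 6514, of 5185 in the fit reported. Directions near 0 turned. KRT8 was at -0.0016 with equal FPKM totals and -0.055 with quantile normalization, and ran from -0.039 to 0.024 with single libraries left out. KRT19 was at -9.3e-05 with quantile normalization and ran from -0.026 to 0.098. PERP was at 0.0098 with median of ratios scaling and 0.0038 with quantile normalization, and ran from -0.039 to 0.029. KRT10 ran from -0.059 to 0.020. MACF1 (of the hemidesmosome and cytolinker list), MSN and TFAP2A had reported values of -0.11, 0.03 and -0.09. MACF1 was at 0.040 with GC and length trends removed and ran from -0.21 to -0.047 with single libraries left out, MSN at -0.021 with quantile normalization, and TFAP2A ran from -0.19 to 0.027. With the replicate block, 4684 genes and the same 4 members were called, MUC1 was gained and DSG2 lost. No sign was seen that the numbers pair the libraries. Deviations of same-numbered libraries correlated at -0.121, 0.104 and -0.118, and 1 of 3 si-NRDE2-2 libraries correlated best with its own number. With 3 libraries per group, such correlations cannot show that pairing is absent. FPKM values carry no counts into the fit, and sampling error is largest for the lowest genes named.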

Other observations

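Keratin-associated proteins cross-link hair keratins, and 93 genes of this family were in the table, 17 of them above 0 in any library. The 1 that passed the filter, KRTAP2-3, was picked after its values were seen. It stood at 6.87, 6.76 and 7.48 FPKM in si-NRDE2-2 replicates 1, 2 and 3 and at 2.99, 2.82 and 3.23 FPKM in si-Control replicates 1, 2 and 3, 2.33 times as high on average. Its log2 fold change was 1.20 ± 0.07 (limma, adjusted p = 3.8e-07). Its relatives KRTAP2-4, KRTAP2-2 and KRTAP2-1, all below the filter, were likewise higher in each si-NRDE2-2 library than in any si-Control library. KRTAP2-4 was at 0.925, 0.954 and 0.855 FPKM in si-NRDE2-2 replicates 1, 2 and 3 and at 0.282, 0.428 and 0.470 FPKM in si-Control replicates 1, 2 and 3. The members of this subfamily are near copies, so their fragments may be shared.

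Genes with profiles most like those of 4 members were sought over the 6 libraries among tested genes outside the lists, by the root mean square distance of centred log2 values. Nearest to KRT81 were CCDC61 (0.0156), SERF1B (0.0165) and DDX41 (0.024). Nearest to KRT80 were LIG3 (0.0177), RANBP9 (0.0181) and RNFT1 (0.0184). Nearest to DSP were MYOF (0.0195), KIAA0586 (0.0301) and PRELID2 (0.0346), and nearest to JUP were MIEF2 (0.00851), FCHSD1 (0.0116) and MRPS5 (0.0128). With 6 libraries in 2 groups, such a distance is small for any gene whose groups differ by a like amount.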
